A study of Homo sapiens with 6 samples.

Results

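The 10 genes described here encode proteins that act in the negative feedback and transcriptional output of the mitogen-activated protein kinase ERK. They are the phosphatase genes DUSP4, DUSP5 and DUSP6, the Sprouty genes SPRY1, SPRY2 and SPRY4, the Spred genes SPRED1 and SPRED2, and the ETS transcription factor genes ETV4 and ETV5. They were chosen by name, with earlier results of these data known. Their rows were found by matching the Ensembl gene IDs of the count table to these symbols. All 10 were found among the 61487 gene IDs listed, and all 10 passed the filter on low counts that left 16591 genes for testing.

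Growth factor receptors activate RAS, RAF, MEK and ERK in turn, and ERK then enters the nucleus and raises transcription of early response genes. Several of those genes encode brakes on the same route: DUSP proteins remove the activating phosphates from ERK, and Sprouty and Spred proteins act upstream, between the receptor and RAF. Transcripts of DUSP6, SPRY2, SPRY4, ETV4 and ETV5 are widely used as a readout of ERK output in lung cancer cells and other tumours, and they are known to fall within hours when MEK is inhibited.

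The labels name the cells as H2170, an established line of human lung squamous cell carcinoma. They expressed GFP alone (Control), ACK1 (WT)-GFP (WT) or ACK1 (IDRmut)-GFP (IDRmut), with 2 libraries in each of the 3 groups, so that GFP was shared by all 6. TNK2 is the gene of ACK1, a tyrosine kinase that is not a receptor. What IDRmut changes is not spelled out in the labels, nor is the promoter that drove the constructs, or whether a group was 1 clone, and the study's stated question was how ACK1 condensates regulate genes. Nothing in the labels says that the 2 libraries of a group came from separate cultures, so each p given here reflects the spread between these particular libraries, and that spread may be only technical.

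Library totals ran from 19128111 to 33540998 counts, the deepest being WT replicate 2, and the 10 genes had between 243 and 9397 counts in each library. Levels are given as CPM, the count of a gene relative to the TMM-scaled size of its library. TNK2 stood at 41.1 and 43.1 CPM in Control, at 3514 and 3613 in WT and at 1762 and 1455 for IDRmut, with reads of the construct and of the endogenous gene counted together. WT carried 2.22 times the TNK2 level of IDRmut, so amount and variant of ACK1 cannot be told apart in the comparison of WT with IDRmut. Of the squamous basal markers KRT5, KRT14, KRT6A, TP63 and SOX2, all 5 passed the filter, and they summed to 1825 and 1832 CPM in the Control libraries, 949 and 925 in those of WT, and 1453 and 1333 in those of IDRmut. Most of that sum was KRT14 (1414 and 1434, 636 and 608, and 993 and 888 CPM), and the markers did not move as a set: 2 were called higher and 3 lower in WT, and 3 higher and 2 lower in IDRmut, with KRT6A and TP63 higher in both arms. The epithelial markers EPCAM and CDH1 were nearly absent, with at most 4 and 3 counts in a library, although the line is labelled as a carcinoma, and its identity was not tested. The summed level of the 5 epithelial markers was 14.95 to 15.98 CPM in Control, 39.5 to 40.3 in WT and 76.8 to 85.6 in IDRmut. Most of that sum was KRT8 (12.68 and 11.35, 28.75 and 27.58, and 76.0 and 68.9 CPM). KRT8 and KRT18 were called higher in both arms, while KRT19 of the same list was called lower in WT and was not called in IDRmut. The 5 endothelial markers summed to 219 to 226 CPM in Control, 51.0 to 53.0 in WT and 99.1 to 102 in IDRmut, most of it CDH5 in all 3 groups (210 and 216, 39.2 and 39.7, and 94.0 and 90.5 CPM), while TEK of the same list was called higher in both arms. The 5 fibroblast markers summed to 821 to 840, 668 to 676 and 852 to 912 CPM in the same order of groups, nearly all of it COL1A2. The 5 leukocyte markers summed to between 0.102 and 0.343 CPM in any library, with CD3E at 0 in all 6. The part of these marker shifts in the results below was not tested, and in bulk RNA a lower level per cell and fewer cells with the transcript cannot be told apart.

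Every one of the 10 genes was lower in both WT libraries and both IDRmut libraries than in both Control libraries. In WT against Control all 10 fell at an adjusted p under 0.05 (quasi-likelihood test of edgeR, Benjamini-Hochberg adjustment over all genes tested), where 17.6% of all genes tested were called lower, 17.4% higher and 35.0% in either direction. In IDRmut against Control 8 fell, where 15.9% of all genes were called lower, 15.6% higher and 31.6% in either direction, and SPRED1 and SPRED2 did not pass. The median log2 fold change of the 10 was -0.62 in WT and -0.40 in IDRmut, where that of all genes tested was 0.0017 and 0.0040. Over all genes tested, both libraries of the arm lay below both Control libraries in 34.7% of genes for WT and 31.3% for IDRmut, and above them in 34.6% and 32.0%. Both comparisons use the same Control libraries, so their results are not independent of each other. The 10 genes were chosen with earlier results of these data known. The shares over all genes are therefore background values and not a test of the set.

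**Figure D1:**
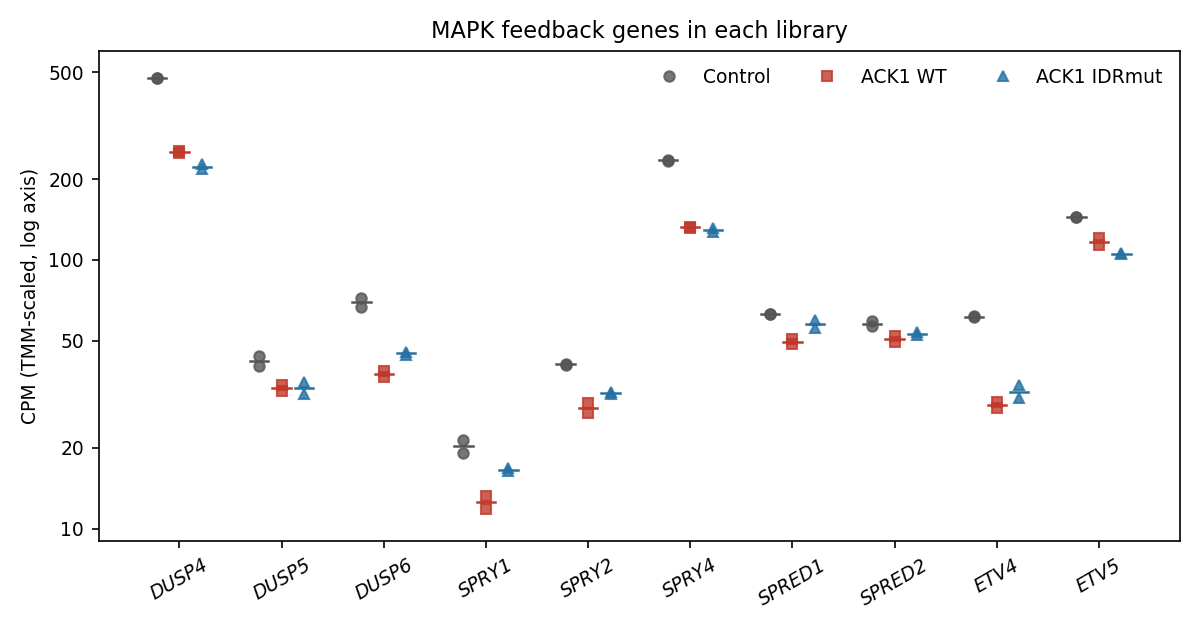
Level of each of the 10 genes in each library, in CPM, with points for single libraries of Control, WT and IDRmut and a bar at each group mean (n = 2). For all 10 genes the Control points lie above every WT and IDRmut point; DUSP4 goes from 477 CPM in both Control libraries to between 218 and 255 CPM in the other 4.

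DUSP4 encodes a nuclear phosphatase that is itself induced by ERK and acts on ERK and on stress-activated kinases. The gene lies on chromosome 8, at 29333064 to 29350668 on the minus strand (GRCh38). It had 477 and 477 CPM in Control, 255 and 250 for WT, and 227 and 218 for IDRmut. Both ACK1 arms were well below Control, and the arms did not overlap each other, IDRmut being the lower. DUSP4 fell by 0.92 ± 0.036 on the log2 scale in WT (SE, edgeR adjusted p = 3.9e-12) and by 1.10 ± 0.037 in IDRmut (edgeR adjusted p = 7.6e-13). It had the largest fall of the 10 genes in IDRmut.

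DUSP5 encodes a nuclear phosphatase with a strong preference for ERK. The gene lies on chromosome 10, at 110497838 to 110511544 on the plus strand. Its levels were 43.9 and 40.3 CPM in Control, 32.7 and 34.4 for WT, and 35.2 and 31.8 for IDRmut. The Control libraries were the highest, and the WT libraries lay inside the range of the IDRmut libraries. DUSP5 fell by 0.33 in WT (SE 0.065, edgeR adjusted p = 0.00086) and by 0.33 in IDRmut (SE 0.067, edgeR adjusted p = 0.0011), the smallest falls of the 3 phosphatases.

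DUSP6 encodes the cytoplasmic ERK phosphatase and its transcript is a common marker of ERK output. The gene lies on chromosome 12, at 89347232 to 89353271 on the minus strand. Its levels were 72.3 and 67.1 CPM in Control, 36.7 and 38.8 for WT, and 45.6 and 44.3 for IDRmut. The 3 groups formed 3 separate levels, Control highest and WT lowest. DUSP6 fell by 0.88 in WT (SE 0.056, edgeR adjusted p = 1.6e-09) and by 0.64 in IDRmut (SE 0.056, edgeR adjusted p = 1.6e-07). In GENCODE 29, 40.5% of its exon bases are overlapped by a gene on the opposite strand, ENSG00000274021, which held 6 to 17 counts per library, and the strand setting of the counting is not given in the sources used here.

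Promoter windows from RefSeq (GRCh38.p14, 250 bases before to 50 after a start) were matched by symbol to 6 of the 10 genes, as 10 windows for SPRY1, SPRY2, SPRY4, SPRED1, SPRED2 and DUSP6. The window of DUSP6, whose 3 levels are given above, is chr12:89352452-89352751 on the minus strand. It is shown because it holds the octamer of CIC, a repressor of ETV and DUSP6 genes that ERK switches off. The capitals mark the 2 matches, TCCATTGA starting at -24 and at 2 from the start, which are TCAATGGA on the other strand.
DUSP6: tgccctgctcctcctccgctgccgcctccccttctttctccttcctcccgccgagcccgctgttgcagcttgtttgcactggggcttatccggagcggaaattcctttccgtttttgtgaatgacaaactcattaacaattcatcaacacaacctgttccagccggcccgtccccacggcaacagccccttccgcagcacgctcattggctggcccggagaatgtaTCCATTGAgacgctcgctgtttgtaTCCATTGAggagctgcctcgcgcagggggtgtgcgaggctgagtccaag
The octamer was searched on both strands as TGAATGAA, TGAATGGA, TCAATGAA and TCAATGGA, words that were chosen after the promoters had been viewed. At least 1 of them was present in 3.77% of all 35116 windows, and at least 2 matches in 115 windows, 0.327%. Of the 10 windows of these genes, DUSP6's was the only one with a match. A match is a description of the letters and not of a bound site.

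SPRY4 encodes a Sprouty protein that blocks RAS activation downstream of receptors and lies on chromosome 5, at 142310427 to 142326455 on the minus strand. Its levels were 236 and 233 CPM in Control, 132 and 133 for WT, and 132 and 127 for IDRmut. Both ACK1 arms were far below Control and close to each other. SPRY4 fell by 0.82 in WT (SE 0.038, edgeR adjusted p = 3.4e-11), and by 0.86 in IDRmut (SE 0.039, edgeR adjusted p = 4.7e-11).

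SPRY2 encodes a Sprouty protein that binds the ubiquitin ligase CBL and the adaptor GRB2 and lies on chromosome 13, at 80335976 to 80340951 on the minus strand. Its levels were 41.1 and 40.8 CPM in Control, 29.3 and 26.9 for WT, and 31.8 and 32.4 for IDRmut. Here the arms separated, WT below IDRmut. SPRY2 fell by 0.55 in WT (SE 0.062, edgeR adjusted p = 2e-06) and by 0.35 in IDRmut (SE 0.062, edgeR adjusted p = 0.00034).

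SPRY1, another Sprouty gene, known for restraining receptor signalling in the developing kidney, lies on chromosome 4, at 123396795 to 123403760 on the plus strand. Its level per kilobase of exon was the lowest of the 10 in every group, and in CPM it had 21.5 and 19.2 CPM in Control, 11.9 and 13.2 for WT, and 16.4 and 16.8 for IDRmut. WT was below IDRmut, and IDRmut below Control, with no overlap between any of the 3 groups. SPRY1 fell by 0.68 in WT (SE 0.087, edgeR adjusted p = 9e-06) and by 0.29 in IDRmut (SE 0.086, edgeR adjusted p = 0.015). The call in IDRmut was lost without Control replicate 1 (edgeR adjusted p = 0.19) and with DESeq2 (adjusted p = 0.11).

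The window of SPRY4 and 1 of the windows of SPRY1 are shown, to set a window with none of the searched words beside one with 2 of them. Another SPRY1 window, chr4:123396545-123396844, spans the gene's start at 123396795 and holds none of the searched words. The contrast is thus between the windows shown and not between the genes. SPRY4's is chr5:142324198-142324497 on the minus strand, and the SPRY1 window shown is chr4:123398136-123398435 on the plus strand. The capitals in SPRY1 mark TTCTTGGAA, a match to the STAT word TTCNNNGAA starting at -188, and CCGGAA, the ETS word searched here, starting at -67. This ETS word is longer than the bare ETS core GGAA, which was not searched for. SPRY4 has no capitals because no searched word was found in it, although its window does hold GGAA.
SPRY4: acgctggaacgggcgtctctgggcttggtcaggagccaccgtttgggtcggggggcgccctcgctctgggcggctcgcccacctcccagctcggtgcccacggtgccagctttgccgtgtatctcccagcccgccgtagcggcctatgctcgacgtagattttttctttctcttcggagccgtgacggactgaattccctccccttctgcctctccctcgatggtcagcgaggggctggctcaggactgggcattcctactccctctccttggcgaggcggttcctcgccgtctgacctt
SPRY1: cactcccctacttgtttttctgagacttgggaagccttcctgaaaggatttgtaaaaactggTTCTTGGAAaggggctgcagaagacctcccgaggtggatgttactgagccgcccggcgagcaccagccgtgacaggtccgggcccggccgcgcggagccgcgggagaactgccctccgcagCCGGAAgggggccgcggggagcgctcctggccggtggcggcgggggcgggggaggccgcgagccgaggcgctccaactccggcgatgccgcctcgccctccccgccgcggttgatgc
Both words were searched on both strands, the STAT word being its own reverse complement, and the ETS word CCGGAA overlapped none of the other matches. The ETS word was present in 17.2% and the STAT word in 7.66% of all windows of this length. SPRY2 had the ETS word CCGGAA in 1 of its windows, starting at -142. Of the other words searched, TGACGTCA, the cAMP response element, was in 1.85% of all windows and in none of these genes. TGANTCA, the AP-1 word searched with any base at N, was in 7.71% of all windows and in 1 of the windows of SPRED2, chr2:65366729-65367028. The matches there were TGACTCA starting at -6 and TGAATCA starting at 35. The SPRED2 window chr2:65432550-65432849 held none of the searched words.

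SPRED1 encodes a protein that brings the RAS inhibitor neurofibromin to the membrane, and it lies on chromosome 15, at 38252326 to 38357249 on the plus strand. Its levels were 63.0 and 62.8 CPM in Control, 50.7 and 48.8 for WT, and 55.9 and 59.6 for IDRmut. WT was the lowest group and IDRmut lay between WT and Control. SPRED1 fell by 0.34 in WT (SE 0.052, edgeR adjusted p = 5.8e-05) and its difference of -0.12 in IDRmut was not called (SE 0.052, edgeR adjusted p = 0.085). Without IDRmut replicate 2 it was called (edgeR adjusted p = 0.020), and without IDRmut replicate 1 the difference was -0.08 (edgeR adjusted p = 0.29).

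SPRED2, the second Spred gene, lies on chromosome 2, at 65310851 to 65432637 on the minus strand. Its levels were 56.8 and 59.3 CPM in Control, 52.2 and 49.4 for WT, and 52.4 and 54.1 for IDRmut. The groups lay close together, with Control the highest. SPRED2 fell by 0.20 in WT (SE 0.053, edgeR adjusted p = 0.0076), and its difference of -0.12 in IDRmut was not called (SE 0.054, edgeR adjusted p = 0.092). The WT call was lost without Control replicate 2 (edgeR adjusted p = 0.092), without WT replicate 2 (edgeR adjusted p = 0.14) and with DESeq2 (adjusted p = 0.058), and the IDRmut difference was called after a GC and length correction (edgeR adjusted p = 0.015).

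ETV4 encodes an ETS factor of the PEA3 group, which drives migration and branching programmes downstream of receptor signalling. The gene lies on chromosome 17, at 43527844 to 43579620 on the minus strand. Its levels were 61.4 and 61.6 CPM in Control, 28.1 and 29.7 for WT, and 34.2 and 30.6 for IDRmut. All 4 ACK1 libraries were far below Control, with WT just below IDRmut. ETV4 fell by 1.08 in WT (SE 0.060, edgeR adjusted p = 3.2e-10), the largest fall of the 10 genes there, and by 0.93 in IDRmut (SE 0.061, edgeR adjusted p = 4.8e-09).

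ETV5, its paralog in the PEA3 group, lies on chromosome 3, at 186046308 to 186110318 on the minus strand. Its levels were 144 and 145 CPM in Control, 120 and 113 for WT, and 105 and 106 for IDRmut. Here IDRmut was the lowest group, the reverse of the order in ETV4. The ETV4 difference between the arms was not called, however (edgeR adjusted p = 0.087). That of ETV5 was not called in every setting tried, as given below. In GENCODE 29, DHX8 on the opposite strand overlaps 1.89% of the exon bases of ETV4, and DGKG on the same strand overlaps 2.83% of those of ETV5. ETV5 fell by 0.31 in WT (SE 0.042, edgeR adjusted p = 1.7e-05) and by 0.45 in IDRmut (SE 0.043, edgeR adjusted p = 3.8e-07).

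**Figure D2:**
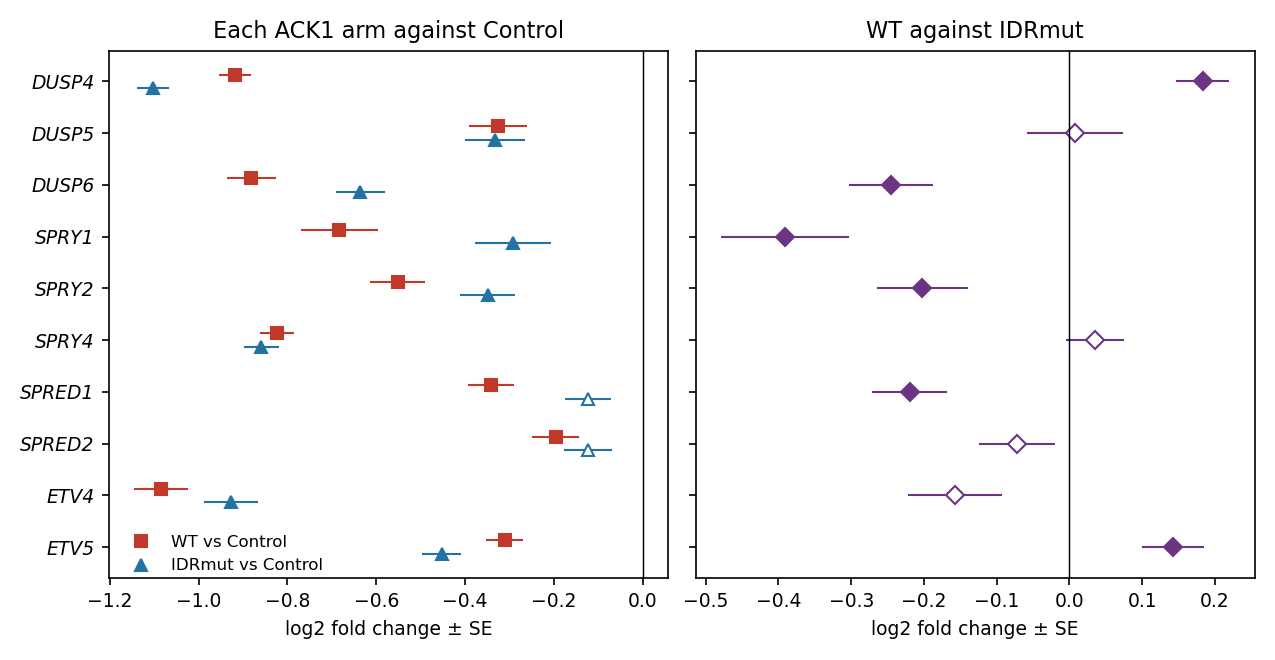
Log2 fold change of each of the 10 genes in the 3 comparisons, with SE bars, filled where called at an adjusted p under 0.05 and open where not. WT against Control is filled and below 0 for all 10 genes, IDRmut against Control for 8, and WT against IDRmut has 4 filled points below 0 and 2 above.

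WT and IDRmut were also compared directly. The Control group is not part of this difference, but the filter, the scaling and the estimate of the spread used all 6 libraries. Each SE and p given here therefore depends in part on the Control libraries. Of the 10 genes 4 were lower in WT and 2 higher, where 12.3% of all genes tested were called lower, 14.2% higher and 26.5% in either direction. The libraries of the arms did not overlap for 9 of the 10, with WT the lower for 6 and the higher for 3 (DUSP4, SPRY4 and ETV5), where all genes gave 30.1% and 31.4%. The median over the 10 was -0.12, against 0.00068 over all genes. The called log2 differences, WT minus IDRmut, were -0.39 for SPRY1 (SE 0.088, edgeR adjusted p = 0.0032), -0.25 for DUSP6 (SE 0.058, edgeR adjusted p = 0.0044), -0.22 for SPRED1 (SE 0.052, edgeR adjusted p = 0.0043) and -0.20 for SPRY2 (SE 0.063, edgeR adjusted p = 0.024). In the other direction DUSP4 was higher in WT by 0.18 (SE 0.037, edgeR adjusted p = 0.0013) and ETV5 by 0.14 (SE 0.043, edgeR adjusted p = 0.020). The 2 phosphatases DUSP4 and DUSP6 thus differed between the arms in opposite directions. The remaining 4 were not called, namely ETV4 (-0.16, SE 0.065, edgeR adjusted p = 0.087), SPRED2 (-0.07, SE 0.052, edgeR adjusted p = 0.34), SPRY4 (0.03, SE 0.039, edgeR adjusted p = 0.56) and DUSP5 (0.0076, SE 0.067, edgeR adjusted p = 0.95), which does not show that they were alike in both arms.

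Some of these calls rested on 1 library. Without WT replicate 1, DUSP6 (edgeR adjusted p = 0.057) and ETV5 (edgeR adjusted p = 0.26) were no longer called. Without WT replicate 2, the deepest library, SPRED1 (edgeR adjusted p = 0.088) and SPRY2 (edgeR adjusted p = 0.34) were not, which left 2 of the 10 genes called lower. Without IDRmut replicate 2, SPRY2 was lost (edgeR adjusted p = 0.056) and ETV4 was called lower (edgeR adjusted p = 0.012), as it also was after a GC and length correction (edgeR adjusted p = 0.027). With DESeq2, SPRY2 (adjusted p = 0.15) and ETV5 (adjusted p = 0.067) were not called. SPRY1 and DUSP4 were called in every one of the alternatives run. Of the differences not called, ETV4 went to -0.08 without IDRmut replicate 1, SPRED2 to -0.03 without WT replicate 2, and SPRY4 to 0.06 without IDRmut replicate 1 and 0.0093 without IDRmut replicate 2. DUSP5 ran from -0.06 without IDRmut replicate 2 to 0.08 without IDRmut replicate 1.

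Levels of different genes were compared as CPM per kilobase of exon. The 10 genes summed to 212 ± 2.05 in Control, 132 ± 1.06 in WT and 132 ± 2.26 in IDRmut (SD, n = 2). The 3 DUSP genes went from 96.9 ± 1.75 CPM per kilobase in Control to 55.7 ± 0.255 in WT and 53.1 ± 1.98 in IDRmut, and the 3 Sprouty genes from 54.3 ± 0.714 to 32.6 ± 0.191 and 34.5 ± 0.276. ETV4 and ETV5 together went from 42.0 ± 0.120 to 28.2 ± 0.552 and 27.2 ± 0.601, and the Spred pair moved least, from 18.9 ± 0.332 to 15.9 ± 0.530 and 17.3 ± 0.544.

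The share of each gene in its family's sum describes the mix of transcripts, and these shares were not tested. DUSP4 was the most abundant phosphatase of the 3 per length in every group, at 67.8% ± 1.25 of the DUSP sum in Control, 62.4% ± 1.24 in WT and 57.6% ± 0.509 in IDRmut (SD, n = 2). DUSP5, which fell least, made up 16.6% ± 0.700 of that sum in Control, 23.0% ± 0.728 in WT and 24.1% ± 0.813 in IDRmut. SPRY4 was the leading Sprouty, with 65.8% ± 0.424 in Control, 61.9% ± 0.750 in WT and 57.2% ± 0.976 in IDRmut. ETV4 held 40.6% ± 0.0071 of the ETV sum in Control, 28.5% ± 1.63 in WT and 33.01% ± 1.85 in IDRmut, with ETV5 as the rest. In the Spred pair SPRED1 held 40.4% ± 0.771 in Control, 37.9% ± 0.269 in WT and 40.4% ± 0.552 in IDRmut.

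**Figure D3:**
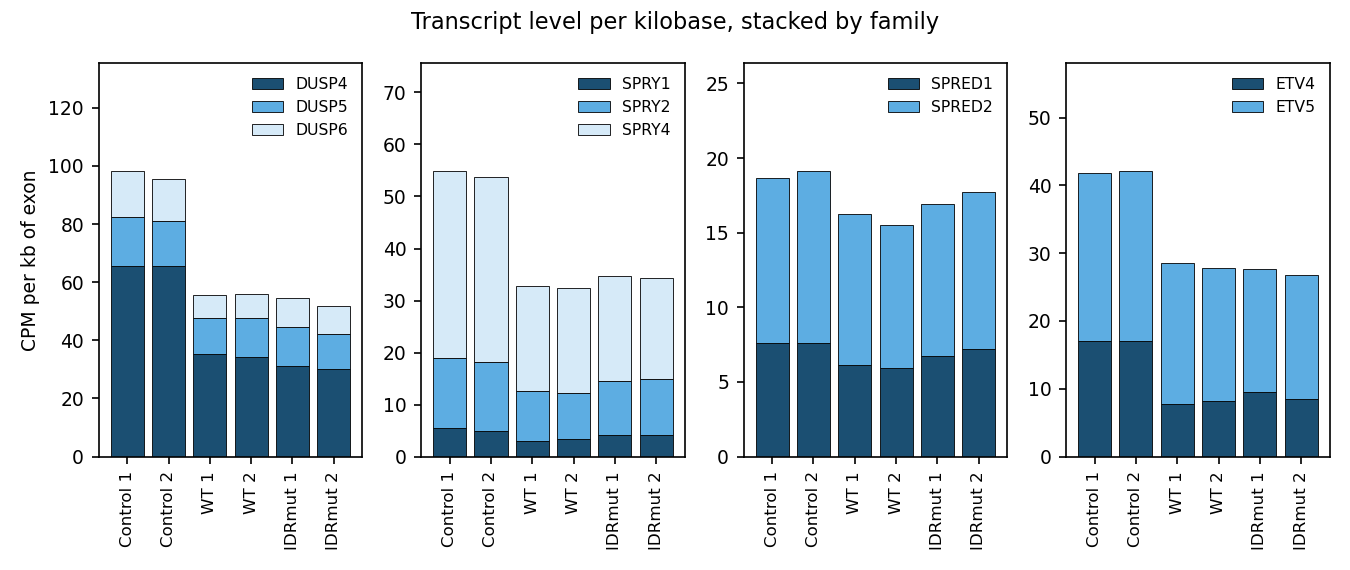
Summed level of each family in each library, in CPM per kilobase of exon, as stacked bars split by gene. As means of 2 libraries, the DUSP sum goes from 96.9 in Control to 55.7 in WT and 53.1 in IDRmut. DUSP4 is its largest part in all 3 groups.

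The profiles of the 10 genes over the 6 libraries were alike to different degrees. Over the 45 pairs, Pearson's r of log2 CPM ran from 0.544 (SPRED1 with ETV5) to 0.992 (DUSP4 with SPRY4), a description in which all pairs share the same libraries and the same 3 groups. Among 10908 genes averaging 5 CPM or more, the most like profile to SPRY4 was that of NUP205 (r = 0.9997), to ETV4 that of BOD1L1 (r = 0.9992), to DUSP4 that of MCM3 (r = 0.9984) and to DUSP6 that of LUZP2 (r = 0.9981). The next were GLI3 for SPRY4, PCDHB7 for ETV4, WSCD1 for DUSP4 and MLEC for DUSP6. For the other genes they were MAFF and DAGLA (DUSP5), ATXN7L3B and USP42 (SPRY1), CCNJ and NORAD (SPRY2), BLCAP and LNX1 (SPRED1), CNOT9 and TNKS2 (SPRED2) and TNPO3 and DLEU2 (ETV5). Each of the 10 had between 77 and 457 genes with r over 0.95, so a close match was common.

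Among the genes most closely related to the 10, the decrease was shared by some and not by others. ETV1, the remaining PEA3-group gene, stood at 77.9 and 77.6 CPM in Control, 39.8 and 42.2 for WT, and 39.0 and 40.3 for IDRmut. The 4 ACK1 libraries lay close together and far below Control. ETV1 fell by 0.92 in WT (SE 0.051, edgeR adjusted p = 3.1e-10) and by 0.97 in IDRmut (SE 0.053, edgeR adjusted p = 4.7e-10). DUSP7, a cytoplasmic ERK phosphatase close to DUSP6, had 294 and 289 CPM in Control, 198 and 197 for WT, and 219 and 208 for IDRmut, and it fell by 0.56 (edgeR adjusted p = 3.3e-09) and 0.45 (edgeR adjusted p = 8.8e-08).

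Of 6 other MAPK phosphatases tested out of 7 listed, 2 rose and 1 fell in WT, and 1 rose and 2 fell in IDRmut, with medians of 0.13 and 0.03. Over all genes tested, 17.4% were called higher and 17.6% lower in WT, and 15.6% higher and 15.9% lower in IDRmut. These are also the background shares for the lists that follow. DUSP10, which acts on JNK and p38, had 19.7 and 19.95 CPM in Control, 33.3 and 34.2 for WT, and 14.0 and 14.9 for IDRmut. It was above Control in WT and below it in IDRmut, with no overlap. DUSP10 rose by 0.77 in WT (SE 0.067, edgeR adjusted p = 1.1e-07) and fell by 0.46 in IDRmut (SE 0.079, edgeR adjusted p = 0.00027), and the difference between the arms was 1.22 (SE 0.070, edgeR adjusted p = 1.2e-09). DUSP16, also a JNK and p38 phosphatase, rose by 0.45 and 0.38 (edgeR adjusted p = 0.0014 and 0.0077). DUSP1, the classical immediate early phosphatase, was not called (-0.04 and 0.09), nor were DUSP2 and DUSP8, and DUSP9 did not pass the filter. Of the other Sprouty and Spred genes, SPRED3 rose by 0.36 in WT (edgeR adjusted p = 0.032) and SPRY3 was not called.

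Of 8 other ETS factors, 3 rose and 3 fell in WT, and 2 rose and 3 fell in IDRmut. ETS2 rose by 1.27 in WT (edgeR adjusted p = 1.9e-10) and by 0.69 in IDRmut (edgeR adjusted p = 1.4e-06), from 15.4 and 15.7 CPM in Control to 37.7 and 37.2 in WT and 24.8 and 25.4 in IDRmut. ELK1, a serum response partner that ERK phosphorylates, fell by 0.24 and 0.26, and ELK4 of the same group rose by 0.31 and 0.33, all called. ELK3 fell by 0.39 in IDRmut (edgeR adjusted p = 2.6e-05) and ETS1 rose by 0.21 in WT (edgeR adjusted p = 0.0009). The ETS repressor gene ERF fell by 0.24 in WT (edgeR adjusted p = 0.016), and ETV3 was not called.

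The repressor CIC and the proteins that degrade ETV and Sprouty proteins were counted as another list, of which 2 rose and 3 fell in WT and 1 rose and 2 fell in IDRmut, out of 6. CIC itself fell by 0.21 in WT (edgeR adjusted p = 0.0049) and by 0.27 in IDRmut (edgeR adjusted p = 0.0011). Its partner gene ATXN1L rose by 0.29 and 0.28, and ATXN1 rose by 0.35 in WT. COP1, a ubiquitin ligase for the PEA3-group factors, fell by 0.25 and 0.21, and its partner DET1 was not called. SIAH2, a ubiquitin ligase known to act on Sprouty 2, fell by 0.20 in WT (edgeR adjusted p = 0.029).

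**Figure D4:**
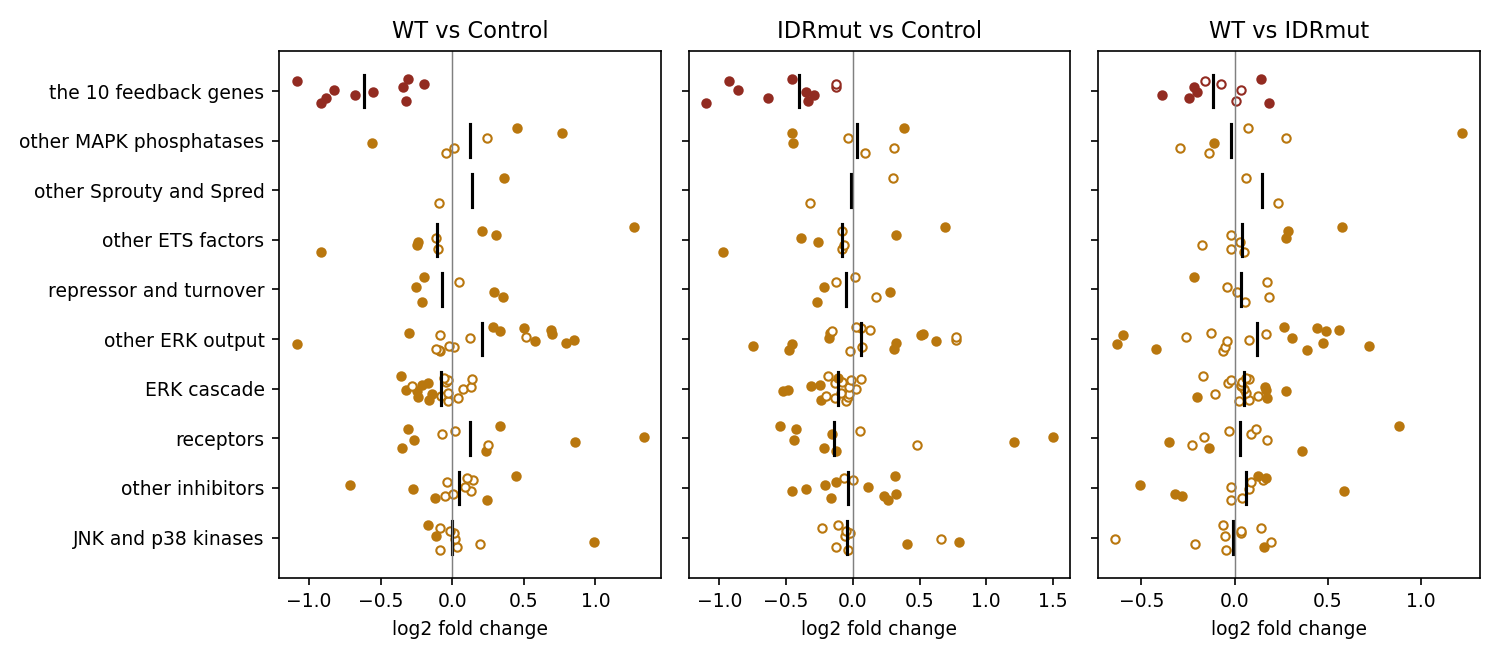
Log2 fold change of every gene tested in the list of the 10 genes and in the 9 lists of related genes, for WT and IDRmut against Control and WT against IDRmut; points are genes, filled where called, and bars are list medians. The 10 genes have medians of -0.62, -0.40 and -0.12, and in the comparison of WT with IDRmut both the 10 genes and most other lists hold points on both sides of 0.

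The other genes of the pathway did not move as one. Of 18 other ERK output genes tested out of 19 listed, 8 rose and 2 fell in WT (median 0.21), and 5 rose and 5 fell in IDRmut (median 0.06). EGR1, an immediate early factor, rose by 0.80 in WT (edgeR adjusted p = 2.3e-08), PLAUR, the urokinase receptor, rose by 0.69 (edgeR adjusted p = 1.9e-07), and FOS fell by 1.09 (edgeR adjusted p = 2.3e-07). In IDRmut FOSL1 fell by 0.75 (edgeR adjusted p = 8.7e-10), EPHA2 fell by 0.48 and MYC rose by 0.51 (edgeR adjusted p = 2.4e-07). So DUSP6, SPRY4 and ETV4 were lower in both arms, as was FOS, while EGR1 was higher in both (0.32 in IDRmut, edgeR adjusted p = 0.0012) and MYC was higher in IDRmut.

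Of 19 genes of the ERK cascade none rose and 8 fell in WT (median -0.08), and none rose and 6 fell in IDRmut (median -0.11). The shares of all genes tested were 17.4% higher and 17.6% lower in WT, and 15.6% higher and 15.9% lower in IDRmut. HRAS fell by 0.25 in WT (edgeR adjusted p = 0.0049) and by 0.53 in IDRmut (edgeR adjusted p = 1e-05). ARAF fell by 0.21 and 0.25, and SHC1, an adaptor at receptors, fell by 0.24 in WT. MAPK3, which encodes ERK1, fell by 0.36 in WT (edgeR adjusted p = 0.0017). Among receptors, 10 of 12 tested, FGFR1 rose by 0.86 and 1.21, while AXL rose by 0.33 in WT and fell by 0.55 in IDRmut, all called, with a difference between the arms of 0.88 (edgeR adjusted p = 7.3e-11). ERBB2 fell by 0.35 in WT and 0.22 in IDRmut, and FGFR3 by 0.27 in WT and 0.44 in IDRmut, all called. Receptors were higher in 4 and lower in 3 genes in WT and higher in 2 and lower in 6 in IDRmut.

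Among 12 other inhibitors of the pathway, 2 rose and 3 fell in WT, and 5 rose and 5 fell in IDRmut. LRIG1, which limits ERBB receptors, fell by 0.71 in WT (edgeR adjusted p = 3.1e-09) and by 0.21 in IDRmut (edgeR adjusted p = 0.0028). PEBP1, which binds RAF, fell by 0.28 and 0.35, and PEA15, which holds ERK in the cytoplasm, rose by 0.44 and 0.32. Of 10 JNK and p38 kinase genes, 1 rose and 2 fell in WT and 2 rose in IDRmut. MAPK12, which encodes p38 gamma, rose by 0.99 and 0.80 (edgeR adjusted p = 2.9e-06 and 7.3e-05). Between the arms, 8 of the ERK output genes were higher and 3 lower in WT, where 14.2% of all genes tested were called higher and 12.3% lower. FOSL1 was at 0.72 and MYC at -0.60 (edgeR adjusted p = 1.5e-09 and 4.1e-08).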

How the data were processed

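Poly-A RNA of 6 libraries was sequenced, 2 per group. The deposited values are raw counts by gene, not normalized by the authors. HISAT2 2.2.1, featureCounts 2.0.1 and SAMtools 1.14 and the build GRCh38 are named in the submitters' processing notes. For the annotation release, strand setting and multi-mapping reads, the choice is not given in the sources used here, so overlapping genes could not be separated. Symbols came from a gene name table (61369 IDs) and GENCODE 29 (105 more), and 13 IDs had no name. Positions and exon lengths came from GENCODE 29.

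The 16591 genes kept by filterByExpr (minimum count 10, minimum total 15) held between 99.846% and 99.885% of the counts of each library. They were fitted in edgeR 4.0.16 (R 4.3.3) with TMM scaling and group means over all 6 libraries, so that the 3 groups shared 1 estimate of the spread, and tested with the quasi-likelihood test. The p-values were adjusted by Benjamini-Hochberg over all 16591 genes and called under 0.05. SE is the log2 fold change divided by the root of the F statistic. The procedure was tested on simulated data.

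The members and gene lists were chosen with earlier results of these data known. Named genes were all 10 members, TNK2, every gene of the 4 short related lists, up to 3 per contrast of the longer lists by smallest adjusted p, and the 2 nearest profiles of each member. A few genes that meet this rule are not reported here.

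Other settings tried were RLE and upper-quartile scaling, DESeq2 1.42.0, no filter, fits of the 2 groups compared alone, a replicate block, leaving out each library, thinning to 19128111 counts, and, added after the data were seen, a GC and length correction. No pairing of samples by replicate number was seen over all genes tested, and a pairing limited to fewer genes was not tested. PCR reads carried no molecular identifiers.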

Additional observations from a re-analysis of the deposited data

How the results depend on the processing

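Over the 14 alternatives, 137 of 140 values of the 10 genes for WT against Control kept their direction and their side of the threshold, 136 of 140 for IDRmut against Control and 128 of 140 for WT against IDRmut; the genes whose calls changed are named with the results. The number of all genes called was 5807, 5237 and 4396 in the 3 comparisons, and 3649, 3290 and 2534 with DESeq2. DESeq2 also left 1 of the 10 genes called higher in WT than in IDRmut, in place of 2. The cause was not tested. DUSP5 in WT against IDRmut changed sign with the GC and length correction (-0.0037), its libraries overlapping in any case. Leaving out 1 library gave 3974 to 7028, 3451 to 5522 and 2590 to 4761 genes called, 9 to 10, 7 to 9 and 2 to 4 of the 10 genes called lower, 1 to 2 called higher in WT against IDRmut, and -0.063 to 0.078 for DUSP5 there. Deviations of same-numbered samples had correlations of -0.0208, -0.0238 and -0.0294 over all genes tested, so no pairing was seen across them. A pairing limited to fewer genes was not tested. With a replicate block 10, 8 and 4 of the 10 genes were called lower and 5440, 4836 and 3966 genes were called in all. The lowest count of any of the 10 genes in a library was 243, for SPRY1.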
